A study of Homo sapiens with 6 samples.

Results

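The 28 genes described here encode the steps of sterol synthesis and its transcriptional control, and were taken from the count table by symbol. They are 21 enzymes, listed in pathway order from acetyl-CoA to cholesterol, and 7 genes of the SREBP system that sets their transcription. All 28 were found among the 25445 rows, and all 28 passed the filter on low counts, which kept 15957 rows. The transcripts were measured by RNA-seq in MHCC-97H cells, an established human liver cancer cell line. Compound 6j, made from the plant alkaloid sophoridine, had been given at 10 μM for 16 h, and the other arm had received the solvent for the same time. The solvent arm is called non-treated below, and both arms were the same line in the same serum-containing medium. There were 3 libraries in each arm, numbered 1 to 3, with total counts from 31533403 to 37919879 in non-treated and from 35002336 to 38018349 in 6j treated cells.

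The labels describe the cells as liver cancer cells. Of 8 hepatocyte and liver cancer markers, 5 (ALB, AFP, GPC3, FGB and AHSG) did not pass the filter, with no library above 8 counts, and GPC3 and AHSG were at 0 counts in all 6. HNF4A lay between 0.546 and 1.40 CPM, whereas the epithelial keratin gene KRT8 lay between 369 and 653 CPM. CPM are counts scaled to the TMM normalized library total. The liver-specific markers were thus absent or nearly so, so the cells are called by their line name. KRT8 was lower in 6j treated cells (log2 fold change −0.58, adjusted p = 0.021, edgeR quasi-likelihood), and any part of this in the results below was not tested. PTPRC and CD3E, markers of blood cells, were at 0 counts in every library, whereas CD68, a macrophage marker of the same list, lay between 39.8 and 70.5 CPM. COL1A1, a fibroblast marker, lay between 203 and 275 CPM with no detected difference (adjusted p = 0.748).

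Cells build cholesterol from acetyl-CoA. The first enzymes make mevalonate and turn it into activated isoprene units, which are joined into farnesyl diphosphate and then squalene, and squalene is closed into the first sterol, lanosterol. A further set of enzymes trims and rearranges lanosterol into cholesterol. The genes of this pathway are switched on together by SREBP-2 and, to a lesser degree, by SREBP-1, which are made as precursors bound to the ER membrane. When ER sterol is low, the escort protein SCAP carries the precursor to the Golgi, where site-1 protease and then site-2 protease release the active factor. When sterol is high, the INSIG proteins hold SCAP in the ER. The counts measure transcripts and not precursor cleavage, so the processed factors were not measured here.

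In the 6j treated cells the transcripts of sterol synthesis were higher along most of the pathway, and INSIG1 was the DEG among the genes of the control system. A gene was called a DEG where its adjusted p was below 0.05 and its fold change exceeded 1.5. Of the 28 genes, 10 were DEGs, all higher and none lower. Over all rows tested 3.60% were DEGs, 2.48% higher and 1.12% lower in 6j treated cells. They were MVD, IDI1, FDPS, GGPS1, LSS, CYP51A1, HSD17B7, SC5D and DHCR7 among the enzymes and INSIG1 among the control genes. HMGCS1 and MVK passed the adjusted p alone, which gave 12 genes that rose and none that fell. Over all rows 9.16% passed the adjusted p, 4.79% higher and 4.37% lower. All 6j treated libraries exceeded all non-treated ones for 18 of the 28 genes (16.0% of all rows) and lay below them for 2 (15.8%). The median log2 fold change was 0.58 over the 28 genes, 0.59 over the 21 enzymes and 0.12 over the 7 control genes, beside 0.00 over all rows tested. Sterol synthesis had been seen to rise in these libraries before the genes were chosen, so the counts describe the genes and are not independent support for their direction. In bulk RNA, fewer cells of a kind and less RNA per cell cannot be told apart.

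**Figure D1:**
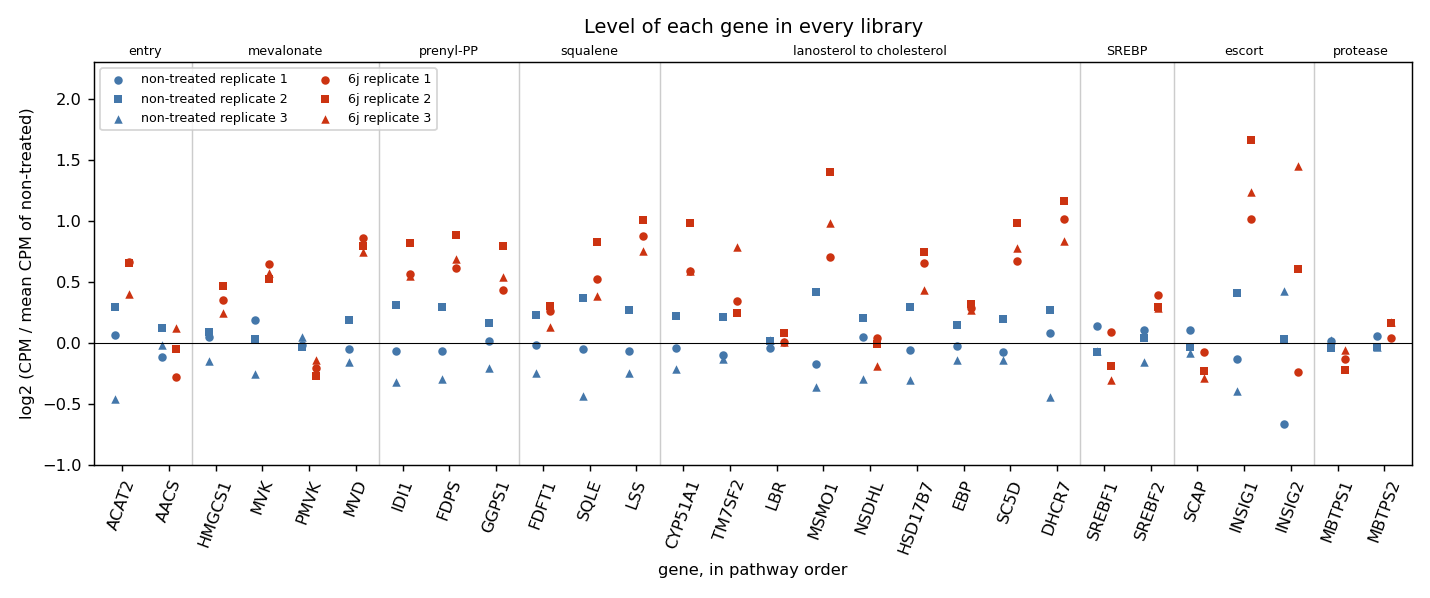
Level of each of the 28 genes in each of the 6 libraries, as log2 of CPM over the mean CPM of the non-treated libraries (vertical axis), in pathway order (horizontal axis), with blue for non-treated, red for 6j treated cells and a symbol for each replicate number. Red points lie above all blue points for 18 genes, while AACS, FDFT1, LBR and NSDHL are the enzymes whose groups overlap.

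The calls rested on the spread between libraries. Libraries that shared a replicate number departed from their group means together, so a second fit blocked on that number. With the block, 15 of the 28 genes were DEGs, all higher (4.01% of all rows, and 2.46% lower), and 19 rose by the adjusted p alone (13.1% of all rows) while 1, SCAP, fell (13.9%), so 20 passed in all (26.9% of all rows). Without a block, the number of DEGs was 3 without non-treated replicate 1, 4 without non-treated replicate 3 and 2 without 6j replicate 2. Over all rows these fits gave 186, 379 and 193 DEGs, beside 574 with all libraries. Among the 28 genes the number was 13 without non-treated replicate 2, and 9 without 6j replicate 1 or 6j replicate 3. Over all rows it was 507, 772 and 527 in these fits. MVD and SC5D were called in all 6 of these fits. LSS and DHCR7 were called in 4 of them, and both lost their calls without non-treated replicate 1 and without 6j replicate 2 (adjusted p = 0.0522 to 0.0549 for LSS and 0.0679 to 0.0755 for DHCR7 in edgeR). FDPS, GGPS1 and CYP51A1 lost theirs without these and without non-treated replicate 3 as well, at adjusted p-values from 0.0514 to 0.102, 0.065 to 0.101 and 0.055 to 0.0893. INSIG1 was called only when non-treated replicate 2 or 6j replicate 1 was left out (adjusted p = 0.0585 to 0.117 otherwise), HSD17B7 only without non-treated replicate 2 or 6j replicate 3 (0.0799 to 0.162), and IDI1 only without non-treated replicate 2 (0.0619 to 0.147). The log2 fold changes of all 10 stayed above 0 in every one of these fits, the lowest being 0.49 for HSD17B7 and GGPS1.

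The bases before the start of some of these genes are shown for a short element found in the promoter windows of most DEGs and of some genes not called. Whether the element bears on the changes was not tested. The element is the CCAAT box, the letters CCAAT on either strand (ATTGG on the other), bound by the factor NF-Y, a known partner of SREBP. Promoter windows from 250 bases before to 50 after each start were taken from RefSeq (GRCh38.p14) and were found for 25 of the 28 genes. The letters CCAAT were in a window of 16 of the 25, and of 14 of the 18 enzymes with a window, against 39.7% of all 27305 RefSeq genes and 43.3% of the 10439 genes tested that had one. They were found for 9 of the 10 DEGs, CYP51A1 being the exception, and for 7 of the 15 genes not called, beside 116 of all 232 DEGs higher in 6j treated cells that had a window. The median log2 fold change was 0.63 for the 16 genes with the letters and −0.06 for the 9 without, which were AACS, PMVK, CYP51A1, LBR, SREBF1, SCAP, INSIG2, MBTPS1 and MBTPS2. In part the split ran along gene kind, since 14 of the 18 enzymes but 2 of the 7 control genes held the letters. Medians within each kind were not taken. The search was chosen after the fold changes were known, some genes have several windows, and the match is a description of the letters with no test. In the following stretches, which hold no annotated exon of the gene, the letters are in capitals:
MVD: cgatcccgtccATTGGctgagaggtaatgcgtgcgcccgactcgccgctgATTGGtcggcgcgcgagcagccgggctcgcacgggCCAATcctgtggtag
FDPS: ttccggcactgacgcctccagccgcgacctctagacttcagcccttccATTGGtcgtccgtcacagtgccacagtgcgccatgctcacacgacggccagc
LSS: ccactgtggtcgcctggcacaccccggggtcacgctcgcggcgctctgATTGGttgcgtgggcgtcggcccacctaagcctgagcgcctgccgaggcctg
DHCR7: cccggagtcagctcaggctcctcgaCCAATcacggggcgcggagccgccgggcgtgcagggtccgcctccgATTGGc
INSIG1: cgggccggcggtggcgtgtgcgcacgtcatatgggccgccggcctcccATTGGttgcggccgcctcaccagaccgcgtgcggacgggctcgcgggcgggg
SREBF2: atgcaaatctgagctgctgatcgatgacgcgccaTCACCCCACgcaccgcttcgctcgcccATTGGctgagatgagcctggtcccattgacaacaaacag

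These stretches are 5′ to 3′ on the strand of each gene, at chr16:88663162-88663261 (minus), chr1:155308642-155308741 (plus), chr21:46228873-46228972 (minus), chr11:71448436-71448512 (minus), chr7:155297660-155297759 (plus) and chr22:41832938-41833037 (plus). All lie before the gene's annotated start but that of DHCR7, which lies in an intron of a longer transcript. The promoter windows of MVD and SREBF2 overlap exons of another gene, SNAI3-AS1 and SREBF2-AS1. Whether these exons reach into the printed stretches was not determined. The MVD stretch holds the letters 3 times and the DHCR7 stretch 2 times. The SREBF2 stretch is shown because it also holds the core of the sterol regulatory element, the site that SREBP binds, searched as TCACNCCAC on either strand, where N is any base, and likewise in capitals. Motifs were counted each on its own and may share end bases. SREBF2 was the only one of the 25 genes with that core in its window, beside 1.39% of all RefSeq genes, so the planned printing of called genes with the core gave none. The core of the ATF4 response element, searched as TGATGNAA, was in no window of the 25 genes and in 2.78% of the genes tested. It was in 10.8% of the 232 DEGs higher in 6j treated cells that had a window. With so low a share of the genes tested, its absence from 25 genes says little. The Sp1 box GGGCGG was in a window of 21 of the 25 and of 76.1% of the genes tested. An element further than 250 bases from the start would not have been seen.

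Before mevalonate, ACAT2 joins acetyl-CoA units in the cytosol and AACS activates acetoacetate for the same pool. ACAT2 was at 80.8, 95.0 and 56.1 CPM in the non-treated libraries 1, 2 and 3, and at 122, 122 and 102 CPM in the 6j treated ones. The groups did not overlap, but non-treated replicate 3 lay far below the others, and the log2 fold change of 0.58 (95% interval 0.16 to 1.00) did not pass (edgeR adjusted p = 0.0917). In the blocked fit ACAT2 was a DEG (log2 fold change 0.61, edgeR adjusted p = 0.00161), and in DESeq2 it passed the adjusted p alone (0.00716). Of its 4299 exon bases, 1538 overlap TCP1 or SOD2 on the other strand, and strand use in the counting is not given in the sources used here. TCP1 fell by 0.42 on the log2 scale and SOD2 rose by 0.45 (adjusted p = 0.0178 and 0.0183 in edgeR). AACS lay between 20.4 and 26.9 CPM in all libraries, its groups overlapped, and its log2 fold change was −0.06 with an interval of −0.35 to 0.22.

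Of the 4 mevalonate genes, 3 passed the adjusted p, all higher. HMGCS1, the synthase that makes HMG-CoA (chromosome 5, 43289395 to 43313512), averaged 90.9 ± 7.90 CPM in non-treated and 117 ± 8.74 CPM in 6j treated cells (SD, n = 3 each), and rose by 0.36 (SE 0.09, edgeR adjusted p = 0.0467). Its adjusted p was under the threshold only without 6j replicate 3 among the fits that left out 1 library, and reached 0.175 without 6j replicate 2. With upper-quartile factors it was 0.0501. MVK, mevalonate kinase, was at 34.1, 30.5 and 25.0 CPM in non-treated and 46.8, 42.9 and 44.6 CPM in 6j treated replicates. It rose by 0.58 on the log2 scale, before rounding just under the fold threshold, with an adjusted p of 0.0209 in edgeR. MVK lost its adjusted p without non-treated replicate 2 (0.0579) and without 6j replicate 2 (0.0824), and it was a DEG with the block (adjusted p = 0.000755). MVK shares 306 of its exon bases with its divergent neighbour MMAB, which rose by 0.59 (edgeR adjusted p = 0.0119).

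PMVK, phosphomevalonate kinase, is the next enzyme. It was at 40.8, 40.3 and 42.7 CPM in non-treated and 35.9, 34.3 and 37.5 CPM in 6j treated replicates, so every 6j treated library lay below every non-treated one. The log2 fold change of −0.20 (interval −0.40 to −0.01) did not pass, with an adjusted p of 0.172 without and 0.0673 with the block in edgeR. MVD, which decarboxylates the product to isopentenyl diphosphate (chromosome 16, 88651935 to 88663161), and whose printed promoter stretch holds the letters CCAAT 3 times, had the smallest p of the 28 genes and ranked 73 among all rows. It was at 39.3, 46.4 and 36.6 CPM in non-treated and 74.0, 70.7 and 68.3 CPM in 6j treated replicates, and the lowest 6j treated library was well above the highest non-treated one. MVD rose by 0.80 (SE 0.10, edgeR adjusted p = 0.00489), and by 0.73 to 0.90 when each library was left out.

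All 3 genes of prenyl diphosphate synthesis were DEGs. IDI1, which interconverts the isoprene units, averaged 201 ± 44.6 CPM in non-treated and 315 ± 33.6 CPM in 6j treated cells (SD, n = 3 each), and rose by 0.65 (edgeR adjusted p = 0.0379). FDPS, farnesyl diphosphate synthase (chromosome 1, 155308748 to 155320666), was at 346, 444 and 295 CPM in non-treated and 553, 668 and 582 CPM in 6j treated replicates. Replicate 2 was the highest of its group in both arms. FDPS rose by 0.73 (SE 0.15, edgeR adjusted p = 0.0211). GENCODE names 8 FDPS pseudogenes, and likewise 3 of CYP51A1, 2 of HSD17B7 and 1 of AACS. How reads shared with any of these were counted is not given in the sources used here. GGPS1 makes geranylgeranyl diphosphate, which leaves the sterol path for protein prenylation, and it rose as well, by 0.60 (edgeR adjusted p = 0.022). It shares 1422 of 3809 exon bases with TBCE, for which no difference was detected (log2 fold change 0.24, adjusted p = 0.767).

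Of the 3 enzymes from farnesyl diphosphate to lanosterol, LSS was a DEG. FDFT1, squalene synthase, overlapped between groups, at 319, 378 and 273 CPM in non-treated and 387, 399.7 and 354 CPM in 6j treated replicates. Its log2 fold change was 0.23 (interval −0.04 to 0.50, edgeR adjusted p = 0.258, and 0.0168 with the block). SQLE, squalene epoxidase and a rate-limiting step of the later pathway, was at 122, 163 and 93.7 CPM in non-treated and 182, 224 and 165 CPM in 6j treated replicates. Non-treated replicate 2 nearly reached the lowest 6j treated library. The SQLE log2 fold change of 0.59 did not pass (adjusted p = 0.131), but SQLE was a DEG with the block (edgeR adjusted p = 0.000184) and in DESeq2 (0.0101), the within-number log2 ratios being 0.57, 0.46 and 0.82. LSS, which closes the ring to lanosterol (chromosome 21, 46188141 to 46228824), was at 84.1, 106 and 74.4 CPM in non-treated and 162, 177 and 148 CPM in 6j treated replicates. The groups were far apart, and LSS rose by 0.88 (SE 0.13, edgeR adjusted p = 0.00902).

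Among the 9 enzymes from lanosterol to cholesterol, 4 were DEGs. CYP51A1, the lanosterol demethylase and the DEG without a CCAAT box in its window (chromosome 7, 92112151 to 92134803), averaged 142 ± 21.6 CPM in non-treated and 236 ± 38.5 CPM in 6j treated cells (SD, n = 3 each), and rose by 0.73 (edgeR adjusted p = 0.0184). It shares 2943 of 3584 exon bases with the genes AC000120.2 and AC000120.3, which held 0 and 2.54 CPM on average in non-treated cells, so few reads were assigned to them. The reduction that follows can be done by TM7SF2 or by LBR, a nuclear envelope protein with the same activity. TM7SF2 was the gene of lowest level, at 2.95, 3.65 and 2.87 CPM in non-treated and 4.01, 3.73 and 5.44 CPM in 6j treated replicates. Its 6j treated libraries lay above the non-treated ones by a narrow margin, and the change of 0.48 on the log2 scale was not called with or without the block (adjusted p = 0.158 and 0.233 in edgeR). LBR lay between 116 and 127 CPM in all 6 libraries, with a log2 fold change of 0.03 and a narrow interval of −0.13 to 0.20. The log2 ratio of TM7SF2 to LBR changed by 0.43 between the groups (two-sided exact permutation test, p = 0.2, adjusted 0.3 over 3 gene pairs), where 3 libraries against 3 allow no p below 0.1.

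MSMO1, the methylsterol oxidase (chromosome 4, 165327623 to 165343160), had the largest fold change of the enzymes and was not called in edgeR without a block. It was at 58.5, 87.7 and 51.4 CPM in non-treated and 107, 174 and 130.3 CPM in 6j treated replicates. Replicate 2 was again highest in both arms, and non-treated replicate 2 came closest to 6j replicate 1. The log2 fold change was 1.06 (interval 0.43 to 1.69, edgeR adjusted p = 0.0574) without a block and 1.07 with it, where MSMO1 was a DEG (adjusted p = 4.68e-05). It was a DEG in DESeq2 as well (adjusted p = 7.27e-06), and among Ensembl genes only (edgeR adjusted p = 0.04997). NSDHL, the dehydrogenase of the same demethylation complex, overlapped between groups at 40.4 to 57.1 CPM, with a log2 fold change of −0.05 and an interval of −0.34 to 0.25. HSD17B7, the ketoreductase of that complex, rose by 0.62 (edgeR adjusted p = 0.0408), from 26.2 ± 5.48 to 40.2 ± 4.33 CPM (SD, n = 3 each). Thus the 3 enzymes that act together on the methyl groups gave log2 fold changes from −0.05 to 1.06, and these were not tested against each other.

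The last steps were led by SC5D and DHCR7. EBP, the isomerase, gave a log2 fold change of 0.29 that did not pass without a block (edgeR adjusted p = 0.0742) and passed with it (0.00705) and in DESeq2 (0.0318), although its groups did not overlap. SC5D, the sterol desaturase (chromosome 11, 121292453 to 121308694), was at 58.3, 70.3 and 55.6 CPM in non-treated and 97.9, 121 and 105 CPM in 6j treated replicates. SC5D rose by 0.82 (SE 0.12, edgeR adjusted p = 0.00696). DHCR7, which reduces the precursor of cholesterol and vitamin D to cholesterol (chromosome 11, 71428193 to 71452868), was at 132, 150.0 and 91.9 CPM in non-treated and 252, 279 and 223 CPM in 6j treated replicates. Every 6j treated library was well above the highest non-treated one, and non-treated replicate 3 was the lowest of all. DHCR7 rose by 1.01 (SE 0.18, edgeR adjusted p = 0.0159), the largest called change among the enzymes.

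**Figure D2:**
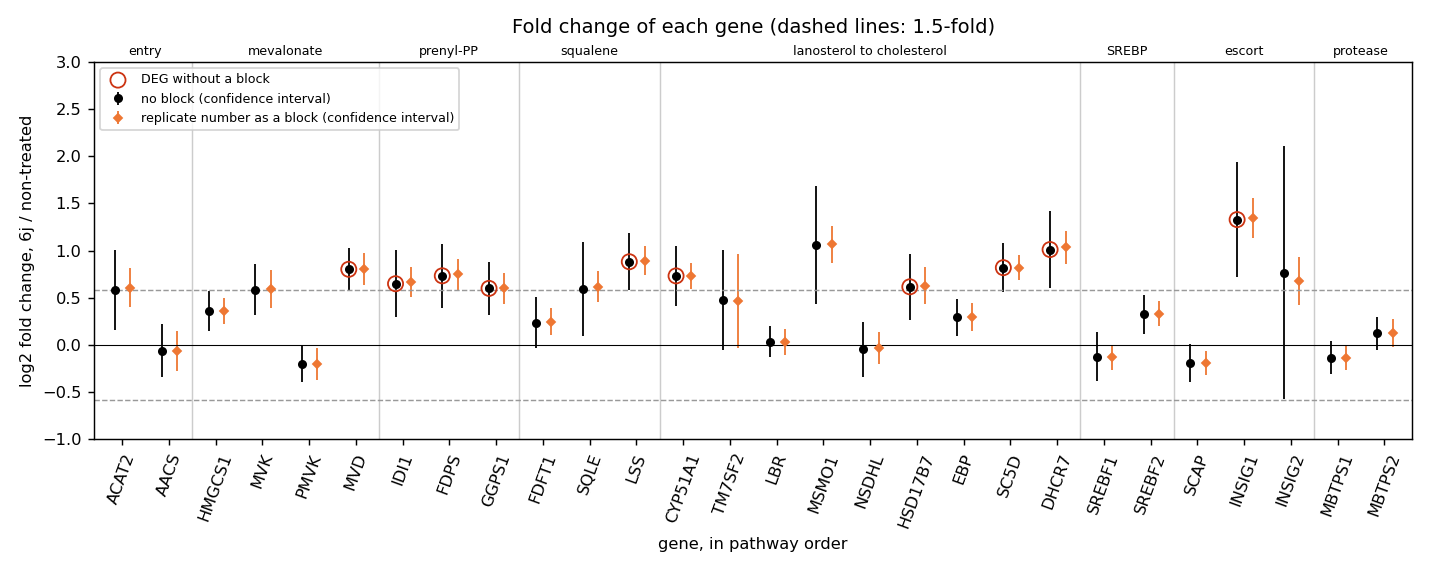
Log2 fold change of 6j treated over non-treated cells (vertical axis) for the 28 genes in pathway order (horizontal axis), from edgeR without a block (black) and with blocking on the replicate number (orange), each with its 95% interval, where red rings mark the 10 DEGs without a block and dashed lines a 1.5-fold change. The estimates of both fits lie close together while the intervals with the block are narrower for most genes, and AACS, PMVK and NSDHL are the enzymes with estimates below 0.

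Levels can be compared between genes only per length, here as CPM per kilobase of the gene's annotated exons. On this scale FDPS was the highest of the 28 genes in non-treated cells at 97.3, followed by FDFT1 at 62.2, EBP at 57.5 and IDI1 at 46.2. The lowest were TM7SF2 at 0.926, AACS at 1.54 and MVK at 4.62. The length counts every annotated exon of a gene, 16.1 kb for AACS and 6.48 kb for MVK. Which transcripts the cells made was not tested, so the order of genes depends in part on the annotation. By mean CPM in non-treated cells, TM7SF2 (3.16) was still lowest and FDPS (362) highest. INSIG2 (20.4) and HSD17B7 (26.2), however, lay below MVK (29.9) in CPM. Per kilobase, FDFT1 and EBP did not differ beyond their spread (SD 10.1 and 5.82), and LBR and MSMO1 were at 22.8 and 22.8. High level did not go with a called change in every case, since FDFT1 and EBP were not DEGs and FDPS was. Summed over the 21 enzymes, the level was 2180 ± 367 CPM in non-treated and 3237 ± 287 CPM in 6j treated cells (SD, n = 3 each), 1.49-fold higher.

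Of the control genes, INSIG1 alone was a DEG. SREBF2, the gene of SREBP-2 (chromosome 22, 41833079 to 41907308), was at 317, 303 and 264 CPM in non-treated and 386, 361 and 360.3 CPM in 6j treated replicates. All 6j treated libraries were above all non-treated ones, by a log2 fold change of 0.32 (SE 0.09), with an adjusted p of 0.0579 without and 0.00219 with the block in edgeR, and of 0.0105 in DESeq2. SREBF1, the gene of SREBP-1 (chromosome 17, 17810399 to 17837002), was at 268, 231 and 232 CPM in non-treated and 259, 214 and 197 CPM in 6j treated replicates. Its groups overlapped, and the change of −0.13 on the log2 scale (interval −0.38 to 0.13) did not pass. The table does not separate the SREBP-1a and SREBP-1c transcripts. The log2 ratio of SREBF1 to SREBF2 was −0.27 ± 0.11 in non-treated and −0.73 ± 0.15 in 6j treated cells (SD, n = 3 each). It was lower in every 6j treated library than in every non-treated one (two-sided exact permutation test, p = 0.1, the smallest the design allows, adjusted 0.3 over the 3 pairs). Within replicate numbers 1, 2 and 3 it changed by −0.33, −0.37 and −0.69.

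SCAP, the escort protein gene, was at 115, 104 and 101 CPM in non-treated and 101, 91.1 and 87.6 CPM in 6j treated replicates. It was lower in 6j treated cells within each replicate number, with log2 ratios of −0.18, −0.20 and −0.20, and fell only in the fit with the block (log2 fold change −0.19, adjusted p = 0.0319 against 0.208 without, in edgeR). INSIG1, which retains SCAP in the ER and is itself a target of SREBP (chromosome 7, 155297776 to 155310235), was at 125, 181 and 104 CPM in non-treated and 276, 431 and 322 CPM in 6j treated replicates. Each 6j treated library exceeded the highest non-treated one by a wide margin, and replicate 2 was the highest of both arms. INSIG1 rose by 1.33 (SE 0.25, edgeR adjusted p = 0.0293), a 2.51-fold rise and the largest of the 28 genes. Without the filter on low counts INSIG1 was not called (edgeR adjusted p = 0.0689).

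INSIG2 is a second retention protein whose gene is not under SREBP control in most cells. It was at 12.9, 20.8 and 27.4 CPM in non-treated and 17.3, 31.0 and 55.5 CPM in 6j treated replicates (chromosome 2, 118088452 to 118110997). In both arms replicate 1 was the lowest and replicate 3 the highest, and the groups overlapped widely. Without a block the log2 fold change of 0.76 had an interval of −0.58 to 2.10 and was not called (edgeR adjusted p = 0.433), and it was 0.25 when 6j replicate 3 was left out and 1.09 when 6j replicate 1 was. With the block INSIG2 was a DEG (log2 fold change 0.68, SE 0.12, edgeR adjusted p = 0.00164), the within-number log2 ratios being 0.42, 0.58 and 1.02. The log2 ratio of INSIG1 to INSIG2 changed by 0.67 between the groups (two-sided exact permutation test, p = 0.4, adjusted 0.4), and by 0.72, 0.68 and 0.61 within replicate numbers 1, 2 and 3.

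The genes of the site proteases were not called in either fit. MBTPS1, site-1 protease, was at 177, 171 and 178 CPM in non-treated and 160.1, 150.3 and 169 CPM in 6j treated replicates, with no overlap between the groups. Its log2 fold change was −0.14 (interval −0.31 to 0.04, edgeR adjusted p = 0.306). MBTPS2, site-2 protease, lay between 123 and 141 CPM with overlapping groups, at a log2 fold change of 0.12 (interval −0.05 to 0.30). MBTPS2 shares 1093 of 8927 exon bases with YY2.

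**Figure D3:**
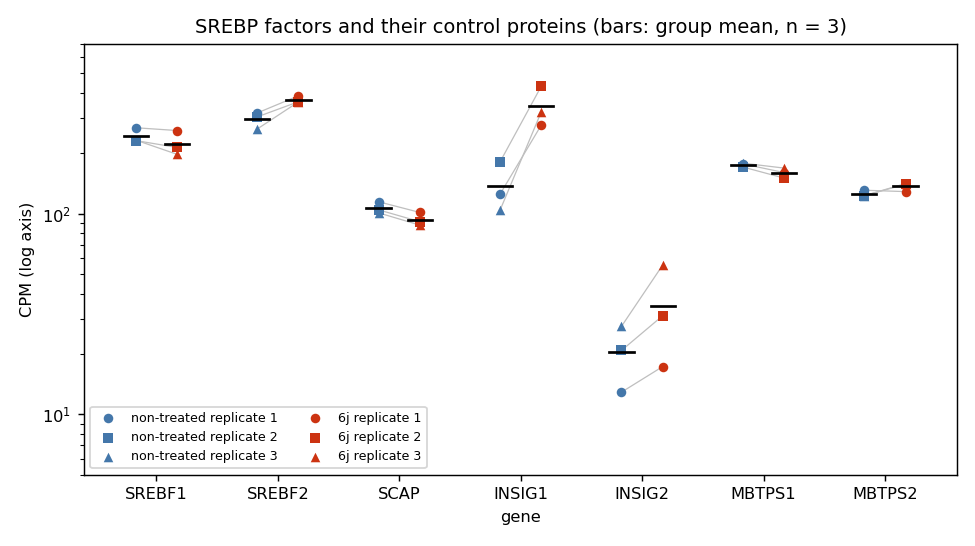
CPM of the 7 SREBP control genes (vertical log axis) in each library, blue for non-treated and red for 6j treated cells, with grey lines joining libraries of the same replicate number and black bars at the group means (n = 3). INSIG1 rises in all 3 numbers from 104 to 181 CPM to 276 to 431 CPM, and INSIG2 keeps the order of the replicate numbers in both arms.

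The enzymes shared a pattern across replicate numbers. Replicate 2 was the highest of the non-treated libraries for 18 of the 21 enzymes, and replicate 3 was the lowest for 18. In 6j treated cells replicate 2 was highest for 14 and replicate 3 lowest for 12. The median log2 ratio of 6j treated to non-treated cells over the 21 enzymes was 0.57, 0.46 and 0.82 within replicate numbers 1, 2 and 3. Over all rows tested it was −0.0039, 0 and 0.0022. Of the 21 enzymes, 17 were higher in 6j treated cells in all 3 numbers. Of the 28 genes, 24 had their largest ratio in replicate number 3 and 16 their smallest in number 2. The shares of all rows with such ratios were not counted. What a replicate number stands for is not given in the sources used here, and no label says that the libraries came from separate cultures, so the p-values measure only the spread between these libraries.

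Other genes tied to the pathway were counted in 6 lists of 53 genes, of which 51 passed the filter and 11 passed the adjusted p (9.16% of all rows), 9 higher (4.79%) and 2 lower (4.37%). Leaving out non-treated replicate 1 or 6j replicate 2 gave 1, and the count was 4 without non-treated replicate 2 and 6 without non-treated replicate 3. Of 10 SREBP targets of fatty acid synthesis, 6 rose and none fell, the median on the log2 scale was 0.43, and all 10 rose by the adjusted p with the block (13.1% of all rows). SCD, the stearoyl-CoA desaturase, averaged 1538 ± 230.4 CPM in non-treated and 3535 ± 449 CPM in 6j treated cells (SD, n = 3 each), and rose by 1.20 (edgeR adjusted p = 0.0036), and was the only one of the 11 to pass in all 6 fits that left out 1 library. ACSS2, which makes acetyl-CoA from acetate, rose by 1.03 (adjusted p = 0.0371). FASN, fatty acid synthase, rose by 0.70 (0.022), and FADS1, a fatty acid desaturase, by 0.59 (0.0116). ELOVL6, a fatty acid elongase, and ME1, malic enzyme, rose by 0.43 and 0.37 and stayed under the fold threshold.

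In the list of degradation and SREBP accessory factors, 2 of 15 genes rose and none fell (median 0.01), beside 4.79% of all rows higher. RNF145, a sterol-responsive ubiquitin ligase that acts on SCAP, rose by 0.69 (edgeR adjusted p = 0.0316), and SPRING1, which the SREBP system needs for cleavage and which the table lists by its older symbol, by 0.48 (adjusted p = 0.022). The NF-Y subunits and Sp1 of this list are named because of the promoter search, after their values were seen, and none passed (NFYA −0.20, NFYB −0.10, NFYC −0.11 and SP1 0.16 on the log2 scale). Among the isoprenoid branches, 1 of 10 genes passed, beside 9.16% of all rows, and it was PDSS1, a subunit of the synthase for the coenzyme Q tail, which fell by 0.57 on the log2 scale (adjusted p = 0.0446). FNTA, the shared subunit of the prenyl transferases and also named after its values were seen, gave 0.28 and did not pass (edgeR adjusted p = 0.0593), but passed with the block (0.00734) and in DESeq2 (0.0351).

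In the list labelled other sterol-regulated genes, of which 5 were tested, STARD4, a sterol carrier, rose by 0.77 (edgeR adjusted p = 0.0215). EBPL, a relative of EBP, fell by 0.65 on the log2 scale (edgeR adjusted p = 0.0382) from a mean of 9.33 to 5.95 CPM. Whether sterol regulates each gene of that list was not tested here. None of 7 oxysterol receptor genes and targets passed in edgeR with or without the block, and the smallest adjusted p-values were those of MYLIP (−0.30, 0.166) and NR1H3 (0.26, 0.265). ABCA1 and ABCG1 of this list averaged only 0.365 and 0.386 CPM in non-treated cells. At such low counts a change could hardly be called, the interval of the ABCA1 log2 fold change being −2.50 to 2.02. None of the 4 electron donors tested passed in either edgeR fit, the smallest adjusted p-values without a block being those of CYB5R3 (−0.19, 0.233) and CYB5B (0.12, 0.384).

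**Figure D4:**
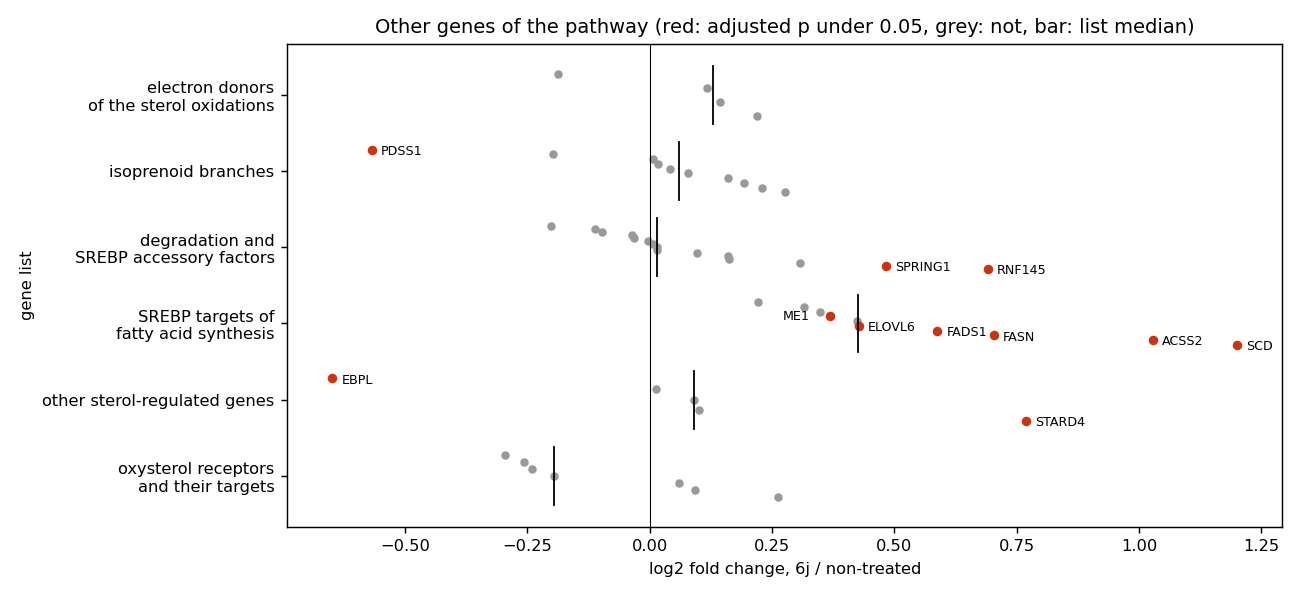
Log2 fold change of 6j treated over non-treated cells (horizontal axis) of the 51 genes tested in the 6 lists (vertical axis), each point a gene, red where the adjusted p was under 0.05 in edgeR without a block and grey otherwise, with a black bar at each list's median. The fatty acid synthesis list lies to the right of 0 throughout, and the oxysterol list holds no red point.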

How the data were processed

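RNA of 3 libraries of 6j treated and 3 of non-treated MHCC-97H cells had been selected with oligo(dT) beads. The authors deposited raw counts, 1 whole number per gene and library, and HISAT2, StringTie and the build GRCh38 are named in the submitters' processing notes with no role or version. The counting program, its annotation and its use of strand are not given in the sources used here, so the counts may be reads or rounded estimates. Of 25445 rows, 19974 carried an Ensembl identifier, all found in GENCODE version 29 (GRCh38), which gave names, coordinates and exon lengths, and 5471 were new genes assembled by the authors' pipeline. Some pathway genes are not reported here.

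After filterByExpr (a minimum count of 10 and total of 15), TMM factors and robust quasi-likelihood fits without covariates were obtained in edgeR 4.0.16 with limma 3.58.1 under R 4.3.3. P-values were adjusted by Benjamini-Hochberg over all 15957 rows tested, standard errors came from the F statistic, and the 95% intervals of log2 fold changes from these and the fit's degrees of freedom. The study's methods name DESeq2 with a 1.5-fold change and p under 0.05, and DESeq2 1.42.0 was an alternative. Gene pairs were compared on log2 CPM (prior count 2) by exact permutation over the 6 libraries. In the blocked fit alone, replicate numbers were treated as pairing the libraries, though no label says that they do. In these same counts, deviations from the group means correlated at 0.171 to 0.312 between libraries of 1 number. Between those of different numbers they correlated at −0.231 to 0.0795. Deviations from a group mean cancel within the group, so the ranges are tied to each other by arithmetic and are no independent support for pairing. The members, the gene lists and the motifs were chosen with earlier results of these data known. All 28 members were named, and of each further list the genes with an adjusted p under 0.05, or the 2 with the smallest where there were none. Protein sequences, planned for the INSIG and SREBP pairs, were not used here. Total counts were 31533403 or more per library. Other normalizations, filters, DESeq2, the replicate block, Ensembl genes only, other fold thresholds and leaving out each library were alternatives, and their use on the further gene lists was added after the data had been seen.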

Additional observations from a re-analysis of the deposited data

How the results depend on the processing

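The number of DEGs among the 28 genes, 10, was 9 to 12 under other normalizations and filters, DESeq2 and Ensembl genes only, and 15 with the replicate block. Over all rows the DEGs numbered 509 (Ensembl genes only) to 773 (DESeq2) in these settings, and 1033 with the block, against 574 in the main fit. Among the 28 genes 2 were called at a fold change above 2, a threshold at which all rows were not counted. By a formal test of a change above 1.5-fold (glmTreat in edgeR) the number among the 28 genes was 0. Over all rows tested, 32 passed that test by the adjusted p. The number with an adjusted p under 0.05, 12, was 20 with the replicate block. Leaving out 1 library gave 2 to 13 DEGs, 2 to 13 genes with an adjusted p under 0.05, and 1 to 9 genes of the further lists, against 11 with all libraries. The DEGs over all rows numbered 186 to 772 in these fits, against 574 with all libraries. How many of all rows passed the adjusted p alone in these fits was not counted. The causes of these changes in number were not tested. Over the 196 log2 fold changes from other processing, none changed direction, 16 came under and 2 went over an adjusted p of 0.05. Leaving out 1 library turned the direction of AACS (−0.16 to 0.04, above 0 at 0.0044 without non-treated replicate 2 and at 0.038 without 6j replicate 1) and NSDHL (−0.18 to 0.06, above 0 at 0.065 without non-treated replicate 2 and 0.018 without 6j replicate 3) and no other of the 28. The change of the gene pair ratios kept its sign. With 1 library left out, that of INSIG1 to INSIG2 was 0.25 (without non-treated replicate 3) to 1.12 (without 6j replicate 3). That of TM7SF2 to LBR was 0.25 (without 6j replicate 3) to 0.56. The mean change within replicate numbers (−0.46, 0.67 and 0.43) equals the unpaired one by arithmetic, so it is no check. The 28 genes held 100 counts or more in every library, the fewest being those of TM7SF2, and any part of depth in the calls was not tested.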
